A study of Homo sapiens and Mus musculus with 19 samples.

Results

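Chromatin-associated RNA (caRNA) from 10 genes of the nuclear RNA exosome and its adaptors was examined: MTREX, ZCCHC8, RBM7, ZFC3H1, PABPN1, EXOSC3, EXOSC10, DIS3, ZC3H18 and NCBP1. The genes were taken by symbol, and the list was chosen with earlier results of these data known. They are 10 of the 58721 genes counted in K562 cells and, as mouse orthologues of the same names, 10 of the 54446 genes counted in mouse embryonic stem cells (mESC). K562 is a line derived from human chronic myeloid leukaemia. It was profiled as TET2 wild type (WT) or TET2 knockout (KO), and each genotype received either a non-targeting shRNA, shControl, or one that targets MBD6, shMBD6, giving 4 groups of 3 libraries. All K562 cells carried a lentiviral shRNA vector and were grown under puromycin. The study's methods give the WT and KO K562 cells as gifts from another laboratory and do not say whether the KO was 1 clone. The mESC received a non-targeting siRNA, siControl, or one that targets Nsun2, siNsun2, with 3 libraries in each group, after passages on gelatin to remove feeder cells. TET2 oxidises 5-methylcytosine, MBD6 is a methyl-CpG-binding-domain protein and NSUN2 is an RNA m5C methyltransferase, and the comparisons ask how caRNA differs when each is lowered.

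The RNA exosome is a barrel of core subunits that threads RNA to 3′-to-5′ exonucleases. In the nucleus it degrades promoter-upstream transcripts, enhancer RNAs, unspliced or prematurely terminated transcripts and snoRNA precursors. It depends on the helicase MTREX, which sits in a pair of adaptor assemblies. The nuclear exosome targeting complex (NEXT) joins MTREX to the scaffold ZCCHC8 and the RNA-binding protein RBM7 and acts mostly on short non-adenylated RNA. The poly(A) exosome targeting connection (PAXT) joins MTREX to the zinc-finger protein ZFC3H1 and the nuclear poly(A)-binding protein PABPN1 and acts on longer polyadenylated RNA. ZC3H18 links these adaptors to the nuclear cap-binding complex, whose large subunit is NCBP1. EXOSC3 is a cap subunit of the core, DIS3 is the core-bound exonuclease and endonuclease, and EXOSC10 is the nuclear exonuclease homologous to yeast Rrp6.

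The values are reads assigned to each gene in the chromatin fraction. The counting options, including whether introns counted, are not given in the sources used here. The values are not protein levels or exosome activity, and a change in the amount of caRNA per cell cannot be told apart from a change in the other genes of the same library. Gene counts per library ran from 58078323 to 66832780 in mESC and from 52158403 to 102070223 in K562. Reads that the counting assigned to no gene were 19.9% ± 0.35 (SD, n = 3) of the records in siControl and 29.4% ± 0.46 in siNsun2. They were between 13.2% and 15.9% in the means of the K562 groups. Whether these reads lay outside genes is not known, since the counting options are not given. In mESC the pluripotency genes Esrrb, Nanog, Zfp42 and Pou5f1 were present in every library while Sox2 was at 0 counts, and 5 fibroblast genes summed to 45.2 to 47.2 CPM (library-scaled counts, with TMM scaling) in siControl and 32.5 to 33.6 in siNsun2. The 7 pluripotency genes summed to 1175 to 1211 CPM in siControl and 1019 to 1044 in siNsun2. The part of either in the siNsun2 results was not tested. In K562 the erythroid factors GATA1, TAL1 and KLF1 were present, the globin genes HBG2 and HBE1 were at 0 counts in every library, and 4 lymphoid genes summed to at most 2.33 CPM. For Sox2, HBG2 and HBE1 overlap with other annotated genes was not examined, so 0 counts set no limit on their level. In TET2 WT cells 8 erythroid genes summed to 208 to 223 CPM with shControl and 170 to 185 with shMBD6. In TET2 KO cells they summed to 131 to 141 CPM with shControl and 171 to 174 in the libraries labelled shMBD6. Genes with at least 1 count numbered 24480 to 26963 in the last of these, 28400 to 29073 in TET2 KO shControl, 28970 to 31932 in TET2 WT shControl and 33529 to 34601 with shMBD6 in TET2 WT. The part of these differences in the members' results was not tested.

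The targeted genes were read first. Nsun2 was at 133, 126 and 130 CPM in siControl and 98.7, 106 and 103 in siNsun2, a log2 change of -0.34 ± 0.03 (SE). In TET2 WT cells MBD6 fell from 41.5 ± 2.5 CPM (SD, n = 3) to 27.9 ± 2.7 with shMBD6 (edgeR quasi-likelihood test, Benjamini-Hochberg adjusted p = 1.8e-07). In TET2 KO cells it went against the label: MBD6 was at 30.6, 30.8 and 29.4 CPM with shControl and at 30.6, 38.3 and 34.2 in the libraries labelled shMBD6 (log2 change 0.19 ± 0.08, adjusted p = 0.057). TET2 reads in TET2 WT cells were at 121 ± 2.6 CPM with shControl and 121 ± 4.1 with shMBD6. They were at 129 ± 2.2 CPM in TET2 KO shControl and 94.8 ± 5.3 in the libraries labelled TET2 KO shMBD6, where each library lay below every library of the other 3 groups. The altered part of TET2 is not given in the sources used here, so these reads check the knockout label only in part. MBD6 in the libraries labelled TET2 KO shControl (30.3 ± 0.75 CPM) was also below that in TET2 WT shControl. All directions that rest on libraries labelled TET2 KO, with either shRNA, carry this limit.

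Not all members could be read. Members that lie inside a longer annotated gene on their own strand had few or no counts, and between 2.13% and 5.24% of the records of a library were set aside as ambiguous between genes. In K562, EXOSC3 (chromosome 9, 37759234 to 37832117, minus strand, GRCh38) had 0 counts in all 12 libraries. It lies wholly inside ENSG00000255872, which held 1212 to 2533 counts, so the 0 sets no limit on its level. RBM7 had 0 to 25 counts, with 91.7% of its exon bases inside ENSG00000255663, and failed the filter on low counts. PABPN1 passed the filter with 282 to 662 counts although all its exon bases lie inside the span of the read-through gene BCL2L2-PABPN1, which held 1648 to 3115. In mESC, Zc3h18 had 0 counts in all 6 libraries, inside Gm20388, and Pabpn1 had 7 to 16 counts, inside Gm20521. Thus 8 of 10 members were tested in K562 and 9 of 10 in mESC. Of these, 7 in K562 (MTREX, ZCCHC8, ZFC3H1, EXOSC10, DIS3, ZC3H18 and NCBP1) and 8 in mESC (Mtrex, Zcchc8, Rbm7, Zfc3h1, Exosc3, Exosc10, Dis3 and Ncbp1) had no exon base shared with another gene on their strand. The values of PABPN1 and Pabpn1 are uncertain for this reason and are given as such.

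The upstream sequence of 4 members is shown because, in the reported fit, the NEXT scaffold ZCCHC8 and EXOSC10 fell in TET2 KO against WT with shControl, where the PAXT scaffold ZFC3H1 and MTREX rose. As given below, the call of EXOSC10 was lost on leaving out most single libraries. Neither ZFC3H1 nor MTREX was called when scaled by total gene counts. The bases come from RefSeq (GRCh38.p14), are written 5′ to 3′ on the gene's strand and end at or before the RefSeq start, without any annotated exon. NCBP1 had no entry, and the other 9 members matched. Capitals mark 6 motifs searched on both strands: CCGGAAG (core of ETS-family sites), GCATGCGC (a shortened NRF1 site), CCAAT (NF-Y), GGGCGG (GC box), CTACAANTC (a shortened ZNF143 motif) and TGACGTCA (the cAMP response element).
ZCCHC8: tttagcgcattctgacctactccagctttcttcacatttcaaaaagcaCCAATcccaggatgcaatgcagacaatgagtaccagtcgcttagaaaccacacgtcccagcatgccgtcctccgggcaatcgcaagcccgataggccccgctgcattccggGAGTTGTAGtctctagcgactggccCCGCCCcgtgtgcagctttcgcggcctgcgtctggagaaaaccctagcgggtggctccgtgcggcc
EXOSC10: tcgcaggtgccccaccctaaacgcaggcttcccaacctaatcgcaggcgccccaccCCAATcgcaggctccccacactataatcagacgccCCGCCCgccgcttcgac
MTREX: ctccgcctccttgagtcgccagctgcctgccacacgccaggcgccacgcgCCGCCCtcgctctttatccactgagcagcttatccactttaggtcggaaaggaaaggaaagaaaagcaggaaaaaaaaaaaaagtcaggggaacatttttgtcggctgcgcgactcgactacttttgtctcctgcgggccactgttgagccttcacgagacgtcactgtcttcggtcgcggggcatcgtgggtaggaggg
ZFC3H1: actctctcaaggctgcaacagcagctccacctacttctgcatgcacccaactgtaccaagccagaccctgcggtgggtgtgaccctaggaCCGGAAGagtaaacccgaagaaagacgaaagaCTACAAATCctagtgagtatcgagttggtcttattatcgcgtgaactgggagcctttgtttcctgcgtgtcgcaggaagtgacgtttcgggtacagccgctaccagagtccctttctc
These are chr12:122500933-122501182 on the minus strand for ZCCHC8, chr1:11099911-11100018 on the minus strand for EXOSC10, chr5:55307739-55307988 on the plus strand for MTREX and chr12:71663859-71664098 on the minus strand for ZFC3H1. The last lies within the longer span that GENCODE gives ZFC3H1. Both scaffolds held the shortened ZNF143 motif, ZCCHC8 beginning 91 bases before its start on the opposite strand and ZFC3H1 128 bases before it on its own strand. Among 27305 promoters of 250 bases, 1.45% held that motif. The GC box was in 7 of the 9 matched members and in 42.3% of all promoters, and CCAAT was in 4 of 9 and in 33.0%. The ETS-family core was in 3 of 9 and in 8.82%, the shortened NRF1 site in 2 of 9 (EXOSC10 and RBM7) and in 2.81%, and the cAMP response element in 0 of 9 and in 1.77%. These counts used all 250 bases before the start, so the NRF1 site of EXOSC10 lies outside the shorter stretch shown. A match is a description of letters and does not show binding.

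Levels were compared between members per kilobase of gene span, since whether introns were counted is not known and the members differ in length. In TET2 WT shControl cells ZCCHC8 (3.71 ± 0.23 CPM per kb, SD, n = 3) and ZFC3H1 (3.52 ± 0.09) stood highest and their libraries overlapped. EXOSC10 (3.11 ± 0.06), NCBP1 (2.94 ± 0.06), ZC3H18 (1.99 ± 0.05), MTREX (1.78 ± 0.07) and DIS3 (1.38 ± 0.05) followed without overlap between neighbours. The order was not the same in all groups. With shMBD6 in TET2 WT cells ZFC3H1 stood alone at 3.21 ± 0.07 CPM per kb, and ZCCHC8 at 2.63 ± 0.11 overlapped EXOSC10 at 2.66 ± 0.06. In TET2 KO shControl cells ZFC3H1 led at 4.06 ± 0.15 and ZCCHC8 followed at 3.03 ± 0.11, overlapping EXOSC10 at 2.91 ± 0.05. DIS3 was lowest in all 4 groups. In siControl mESC the order was Mtrex at 6.40 ± 0.14 CPM per kb, Zfc3h1 at 5.07 ± 0.15, Dis3 at 4.29 ± 0.17 and Zcchc8 at 3.72 ± 0.03, with Exosc3 lowest at 0.21 ± 0.03. Exosc10, Ncbp1 and Rbm7, between 2.28 and 2.32 CPM per kb, overlapped. Per kilobase of merged exon instead, MTREX moved from rank 6 to rank 1 in every K562 group and ZCCHC8 was at rank 6 in all 4, so the order depends on the length used.

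**Figure D1:**
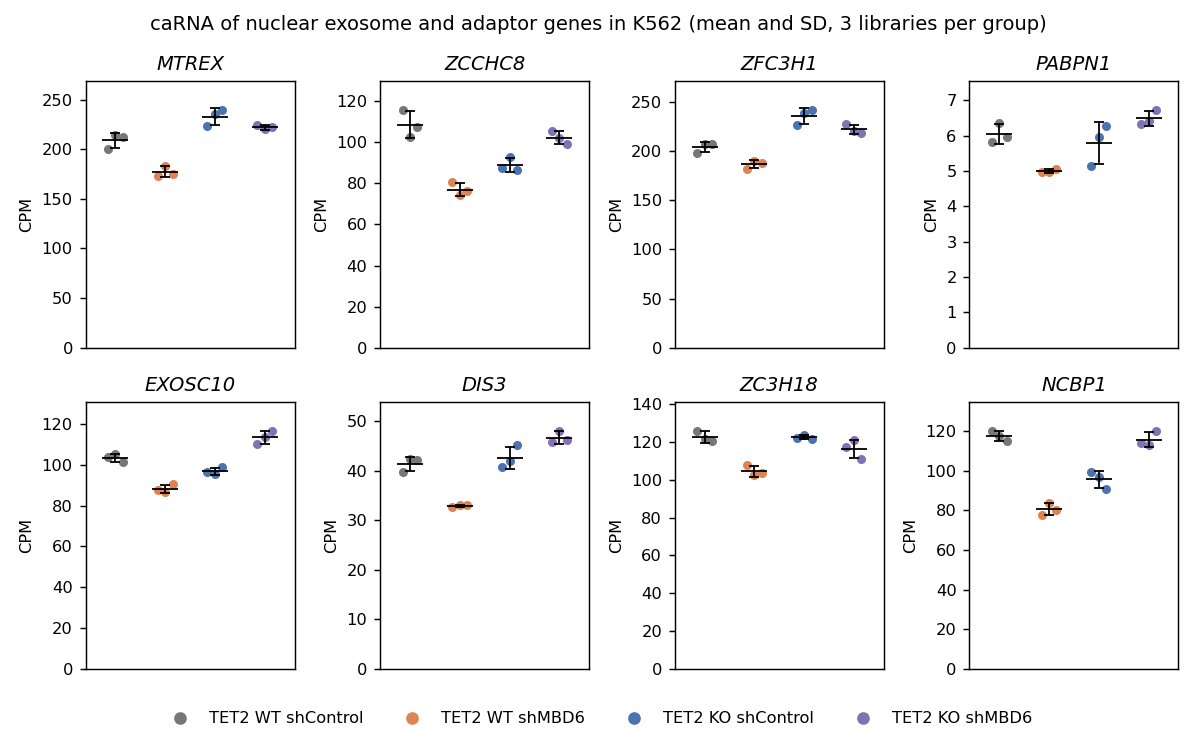
CPM of the 8 members tested in K562 (y axis, from 0) by group (colours); each point is 1 library, the long bar the mean and the whiskers the SD of 3 libraries. NCBP1 and ZCCHC8 were lower in the orange and blue groups (shMBD6 in TET2 WT, shControl in TET2 KO) than in the other 2 groups, while MTREX and ZFC3H1 were highest in TET2 KO shControl. All exon bases of PABPN1 lie inside the span of a read-through gene.

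The first K562 comparison asks how the members respond to shMBD6 in TET2 WT cells. All 7 members with exons of their own fell, by 8.8% (ZFC3H1) to 31.6% (NCBP1), and PABPN1 did not pass the test. Across all 26023 genes tested, 24.7% were called lower and 17.7% higher at an adjusted p under 0.05. The members' median log2 change was -0.26 over the 8 tested, against 0.10 over all genes and -0.17 over the 5956 genes at a mean log2 CPM of at least 5, called well expressed genes here. Of all calls 41.8% were higher in the reported fit and 62.8% when libraries were scaled on the well expressed genes.

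NCBP1, the large subunit of the nuclear cap-binding complex, gave the largest change. It was at 120, 118 and 115 CPM with shControl and 77.7, 83.8 and 80.2 with shMBD6, with no overlap (log2 change -0.55 ± 0.04, SE; edgeR adjusted p = 1.1e-12). ZCCHC8, which holds NEXT together, was at 116, 103 and 107 CPM against 80.7, 74.2 and 76.2, again without overlap (-0.50 ± 0.05, adjusted p = 9.7e-11). The catalytic subunit DIS3 was at 39.7, 42.3 and 42.2 CPM against 32.7, 33.0 and 33.1 (-0.33 ± 0.06, adjusted p = 1.9e-05). For these 3 genes the call held under every scaling tried, with NCBP1 between -0.55 and -0.38, ZCCHC8 between -0.50 and -0.33 and DIS3 between -0.33 and -0.16.

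MTREX, the helicase shared by NEXT and PAXT, changed by -0.24 ± 0.03, EXOSC10 by -0.23 ± 0.04, ZC3H18 by -0.23 ± 0.04 and ZFC3H1 by -0.13 ± 0.03. For each the 3 shMBD6 libraries lay below the 3 shControl libraries, as for MTREX at 173, 184 and 175 CPM against 200, 215 and 212. When libraries were scaled on the well expressed genes alone these 4 calls were lost, with ZFC3H1 at 0.03. The call of ZFC3H1 was also lost with DESeq2 size factors and by total gene counts. PABPN1 was at 5.81, 6.35 and 5.96 CPM against 4.98, 4.97 and 5.06 (-0.27 ± 0.15, adjusted p = 0.14).

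**Figure D2:**
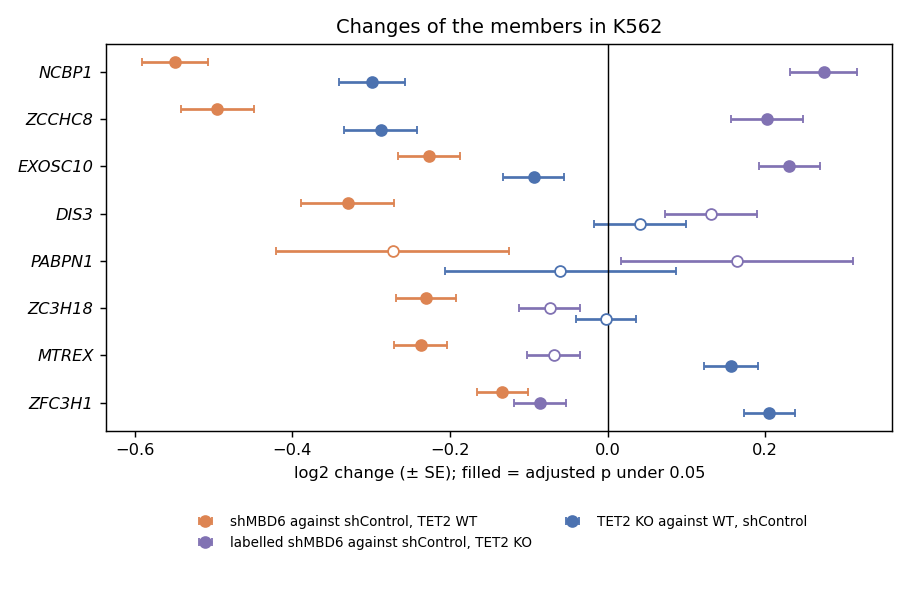
Log2 change ± SE (x axis) of the 8 tested members (rows) in 3 K562 comparisons (colours); filled points passed an adjusted p under 0.05. NCBP1, ZCCHC8 and EXOSC10 lie left of 0 with shMBD6 in TET2 WT and right of 0 for the libraries labelled shMBD6 in TET2 KO, while ZFC3H1 lies left of 0 in both.

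The second comparison sets TET2 KO against TET2 WT, both with shControl. Here the members split: 2 rose and 3 fell of 8 tested, with 23.5% of all genes called higher and 22.3% lower. Of all calls 51.4% were higher in the reported fit and 35.3% by total gene counts. NCBP1 was at 99.4, 97.0 and 90.9 CPM in the KO against 120, 118 and 115 in the WT (-0.30 ± 0.04, adjusted p = 3.3e-07). ZCCHC8 was at 87.6, 92.8 and 86.6 against 116, 103 and 107 (-0.29 ± 0.05, adjusted p = 3.1e-06). In both genes each KO library lay below each WT library. EXOSC10 fell by 0.09 on the log2 scale (adjusted p = 0.047), a call that was lost on leaving out any of 5 of the 6 libraries in turn, with an adjusted p of up to 0.15.

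ZFC3H1, the PAXT scaffold, went the other way. It was at 226, 239 and 242 CPM in the KO and 199, 207 and 208 in the WT (0.21 ± 0.03, adjusted p = 2.9e-06). MTREX was at 224, 235 and 240 CPM against 200, 215 and 212 (0.16 ± 0.03, adjusted p = 2.4e-04). Scaled by total gene counts, neither of the last 2 was called, at 0.03 for ZFC3H1 and -0.02 for MTREX, whereas NCBP1 was at -0.48 and ZCCHC8 at -0.47. By that scaling 5 members were called lower, DIS3 (-0.14) and ZC3H18 (-0.18) among them, and none higher. DIS3 (0.04 ± 0.06), ZC3H18 (-0.0024 ± 0.038) and PABPN1 (-0.06 ± 0.15) did not pass the test.

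Change varied with gene span over all genes in this comparison. Among protein-coding genes at a mean log2 CPM of at least 5, the median log2 change was -0.16 for 1136 genes under 30 kb, -0.04 for 1490 genes of 30 to 60 kb, 0.11 for 1412 genes of 60 to 120 kb and 0.20 for 1379 longer genes. The members that fell span 29.3 kb (ZCCHC8), 33.3 kb (EXOSC10) and 40.1 kb (NCBP1), and those that rose 58.1 kb (ZFC3H1) and 118 kb (MTREX). ZCCHC8 and NCBP1 lay below the median of their span class and ZFC3H1 above its own. With shMBD6 in TET2 WT cells the same medians were -0.31, -0.25, -0.15 and -0.06. There NCBP1, ZCCHC8, MTREX and ZC3H18 lay below the median of their span class. DIS3 (-0.33) and EXOSC10 (-0.23) lay near the medians of theirs, and ZFC3H1 (-0.13) lay above its own. The part of gene span in the members' results was not tested.

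The third comparison sets the TET2 KO libraries labelled shMBD6 against TET2 KO shControl. Of 8 tested members 3 rose and 1 fell, with 15.7% of all genes called higher and 20.6% lower. Of all calls 43.3% were higher in the reported fit and 59.9% by total gene counts. NCBP1 was at 114, 113 and 120 CPM against 99.4, 97.0 and 90.9 (0.27 ± 0.04, adjusted p = 2.4e-06). EXOSC10 was at 110, 114 and 117 CPM against 96.3, 95.4 and 98.7 (0.23 ± 0.04, adjusted p = 1.1e-05). ZCCHC8 was at 106, 102 and 99.0 CPM against 87.6, 92.8 and 86.6 (0.20 ± 0.05, adjusted p = 6.3e-04). The groups did not overlap for these 3 genes, and each call held under every scaling.

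ZFC3H1 was at 228, 220 and 219 CPM against 226, 239 and 242, so the groups overlapped, and its small fall (-0.09 ± 0.03, adjusted p = 0.038) was lost under 3 scalings and turned to 0.04 by total gene counts. DIS3 was at 45.7, 48.1 and 46.1 CPM against 40.8, 41.9 and 45.1 (0.13 ± 0.06, adjusted p = 0.079). MTREX (-0.07 ± 0.03), ZC3H18 (-0.07 ± 0.04) and PABPN1 (0.16 ± 0.15) did not pass the test. The span classes here were 0.16, 0.08, -0.06 and -0.21, from the shortest to the longest.

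The fourth comparison sets the libraries labelled TET2 KO shMBD6 against TET2 WT shMBD6. All 8 tested members were called higher, with 30.1% of all genes called higher and 28.5% lower. The call of PABPN1 was lost in 6 of 7 other settings and on leaving out any of 4 of the 6 libraries (any TET2 WT shMBD6 library or the third labelled TET2 KO shMBD6), with an adjusted p of up to 0.071, and that of ZC3H18 was lost in 6 of 7 other settings. Of all calls 51.4% were higher in the reported fit and 33.6% with scaling on well expressed genes. NCBP1 at 114, 113 and 120 CPM against 77.7, 83.8 and 80.2 (0.52 ± 0.04, adjusted p = 1.8e-12) and DIS3 at 45.7, 48.1 and 46.1 CPM against 32.7, 33.0 and 33.1 (0.50 ± 0.06, adjusted p = 8.1e-09) led. ZCCHC8 changed by 0.41 ± 0.05, PABPN1 by 0.38 ± 0.15, EXOSC10 by 0.36 ± 0.04, MTREX by 0.33 ± 0.03, ZFC3H1 by 0.25 ± 0.03 and ZC3H18 by 0.15 ± 0.04. The 5956 well expressed genes had a median of 0.22. Scaled on those genes, 5 members stayed called (NCBP1, DIS3, ZCCHC8, EXOSC10 and MTREX) and ZC3H18 was at -0.06.

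The interaction asks whether the response to shMBD6 differed between genotypes and was tested as the response labelled shMBD6 in TET2 KO minus that in TET2 WT. It was called positive in 6 of 8 tested members, where 23.9% of all genes were called positive and 25.5% negative. Of all calls 48.4% were positive in the reported fit and 38.1% with scaling on well expressed genes. NCBP1 gave 0.82 ± 0.06 (adjusted p = 1.4e-13), ZCCHC8 0.70 ± 0.07 (6.6e-11), DIS3 0.46 ± 0.08 (1.8e-05) and EXOSC10 0.46 ± 0.05 (1.5e-08), in edgeR adjusted p. These 4 stayed called under all scalings. MTREX (0.17 ± 0.05) and ZC3H18 (0.16 ± 0.05) were called in the reported fit and not with DESeq2 size factors or with scaling on well expressed genes. ZFC3H1 gave 0.05 ± 0.05 (adjusted p = 0.41) and was called negative, at -0.11 (adjusted p = 0.041), when scaled on well expressed genes. PABPN1 gave 0.44 ± 0.21 (adjusted p = 0.082). The 5956 well expressed genes had a median of 0.13. The span classes ran from 0.49 for genes under 30 kb through 0.32 and 0.07 to -0.17 for the longest. NCBP1, ZCCHC8, EXOSC10, MTREX and ZC3H18 lay above the median of their span class, and DIS3 and ZFC3H1 lay below theirs. The part of gene span in the interaction was not tested.

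**Figure D3:**
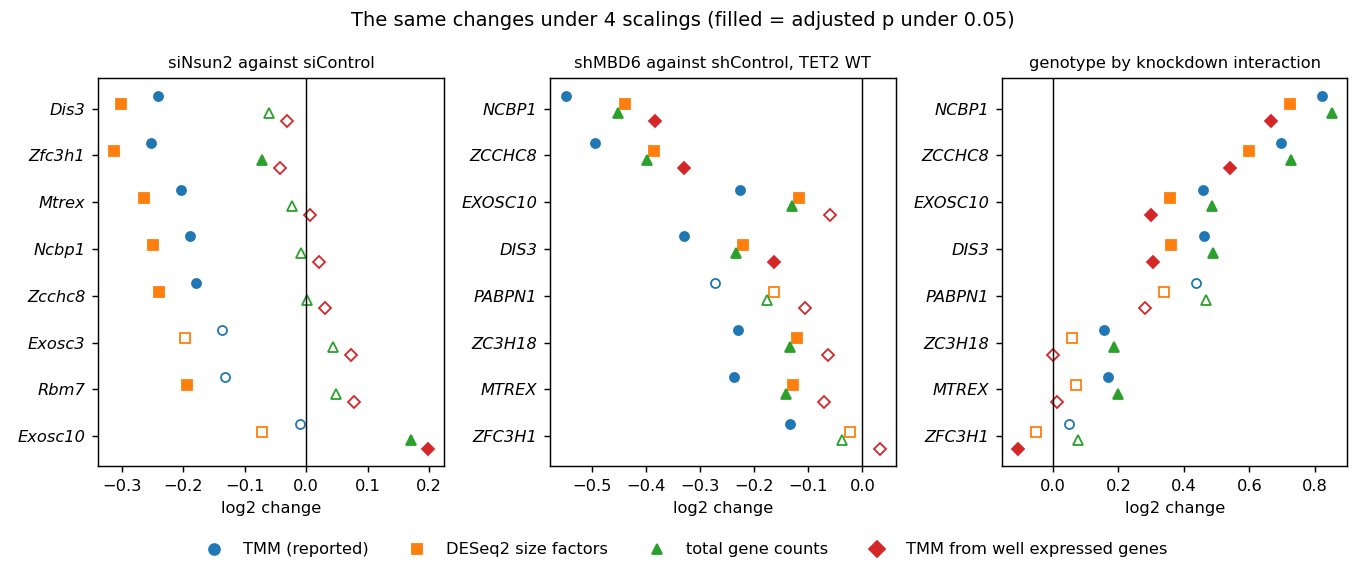
Log2 change (x axis) of the members (rows) in 3 comparisons under 4 ways of scaling the libraries (symbols); filled symbols passed an adjusted p under 0.05. In siNsun2 the points of Mtrex, Zcchc8, Ncbp1, Rbm7, Exosc3 and Exosc10 straddle 0 and those of Zfc3h1 and Dis3 lie below it, while NCBP1 and ZCCHC8 stay on 1 side of 0 in both K562 panels.

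Ratios between members within a library do not depend on how libraries are scaled. The log2 ratio of ZFC3H1 to ZCCHC8 counts, a balance of PAXT to NEXT scaffold transcripts, was 0.78, 1.02 and 0.95 in TET2 WT shControl, against 1.17, 1.36 and 1.30 with shMBD6. It was 1.37, 1.36 and 1.49 in TET2 KO shControl and 1.11, 1.11 and 1.14 in the libraries labelled TET2 KO shMBD6. Thus it was higher by 0.36 ± 0.09 (SE) with shMBD6 in TET2 WT, and by 0.49 ± 0.08 in TET2 KO than WT with shControl. It was lower in the libraries labelled shMBD6 than in shControl within TET2 KO (-0.29 ± 0.04). With shMBD6 the genotypes differed the other way, with the libraries labelled TET2 KO shMBD6 below TET2 WT shMBD6 (-0.16 ± 0.06). The libraries of the groups compared did not overlap in any of these. Each exact two-sided permutation test gave p = 0.1, the smallest that 3 libraries against 3 allow, and 0.11 after Benjamini-Hochberg adjustment over 15 ratio tests.

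**Figure D4:**
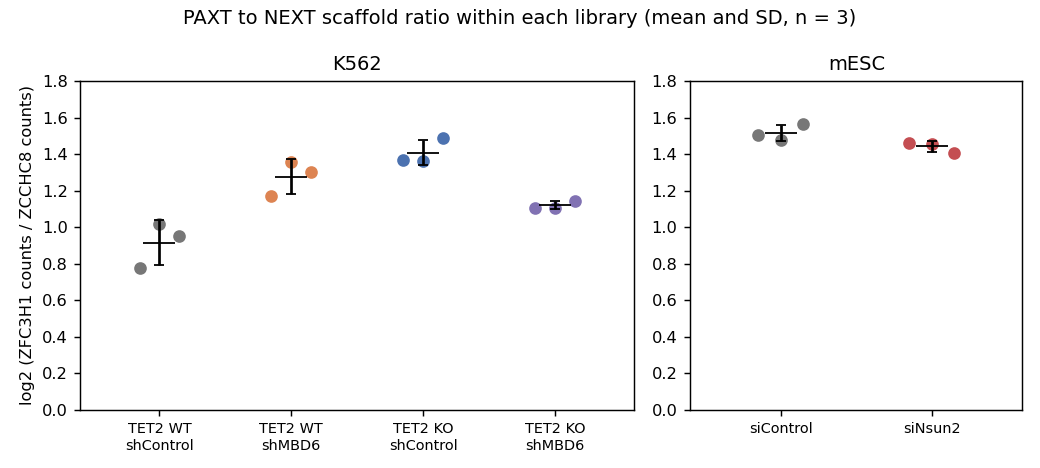
Log2 ratio of ZFC3H1 to ZCCHC8 counts within each library (y axis, points), with mean and SD of 3 libraries, in K562 (left) and mESC (right). TET2 WT shControl is lowest among the K562 groups and TET2 KO shControl is highest.

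The log2 ratio of the nuclear exonuclease EXOSC10 to DIS3 was 1.32 ± 0.06 (SD, n = 3) in TET2 WT cells with shControl and 1.42 ± 0.03 with shMBD6, and in TET2 KO cells 1.19 ± 0.06 with shControl and 1.28 ± 0.05 in the libraries labelled shMBD6. Groups compared did not overlap, and again p = 0.1 in each exact permutation test. PABPN1 to ZFC3H1 was between -5.35 and -5.08 in the group means. In mESC, ZFC3H1 to ZCCHC8 was 1.51 ± 0.04 in siControl and 1.44 ± 0.03 in siNsun2, and EXOSC10 to DIS3 was -0.92 ± 0.12 and -0.69 ± 0.03, both without overlap (exact permutation p = 0.1). RBM7 to ZCCHC8 overlapped (exact permutation p = 0.8). In K562 RBM7, and in mESC Pabpn1, held too few counts for a ratio.

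In mESC the members were compared between siNsun2 and siControl. Of 9 tested members 5 fell, and the log2 changes of all 9 were below 0, from -0.44 to -0.01, with 24.3% of all 27603 genes called lower and 25.8% higher. Mtrex was at 378, 380 and 394 CPM in siControl and 335, 332 and 333 in siNsun2 (-0.20 ± 0.02, adjusted p = 1.1e-12). Zfc3h1 was at 239, 238 and 250 CPM against 204, 199 and 207 (-0.25 ± 0.03, adjusted p = 2.1e-14). Dis3 was at 105, 102 and 110 CPM against 89.7, 87.2 and 90.8 (-0.24 ± 0.03, adjusted p = 1.1e-09). Ncbp1 changed by -0.19 ± 0.04 and Zcchc8 by -0.18 ± 0.04. In each of these 5 genes the groups did not overlap.

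Exosc10 was at 58.9, 55.3 and 52.9 CPM in siControl and 55.4, 55.3 and 55.2 in siNsun2, with overlap (-0.01 ± 0.04, adjusted p = 0.85). Rbm7 (-0.13 ± 0.08, adjusted p = 0.19) and Exosc3 (-0.14 ± 0.13, adjusted p = 0.40) did not pass the test, and Pabpn1, with 7 to 16 counts, gave -0.44 ± 0.70. The 5532 genes at a mean log2 CPM of at least 5 had a median log2 change of -0.21, and the 5 called members lay between -0.25 and -0.18. When libraries were scaled by total gene counts, Zfc3h1 alone of the 5 stayed called (-0.07) and Exosc10 was called higher (0.17). When they were scaled on the well expressed genes, none of the 5 stayed called and Exosc10 was again called higher (0.20, adjusted p = 5.9e-05). Of all calls in this comparison 51.5% were higher in the reported fit, 79.8% by total gene counts and 84.3% on well expressed genes.

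**Figure D5:**
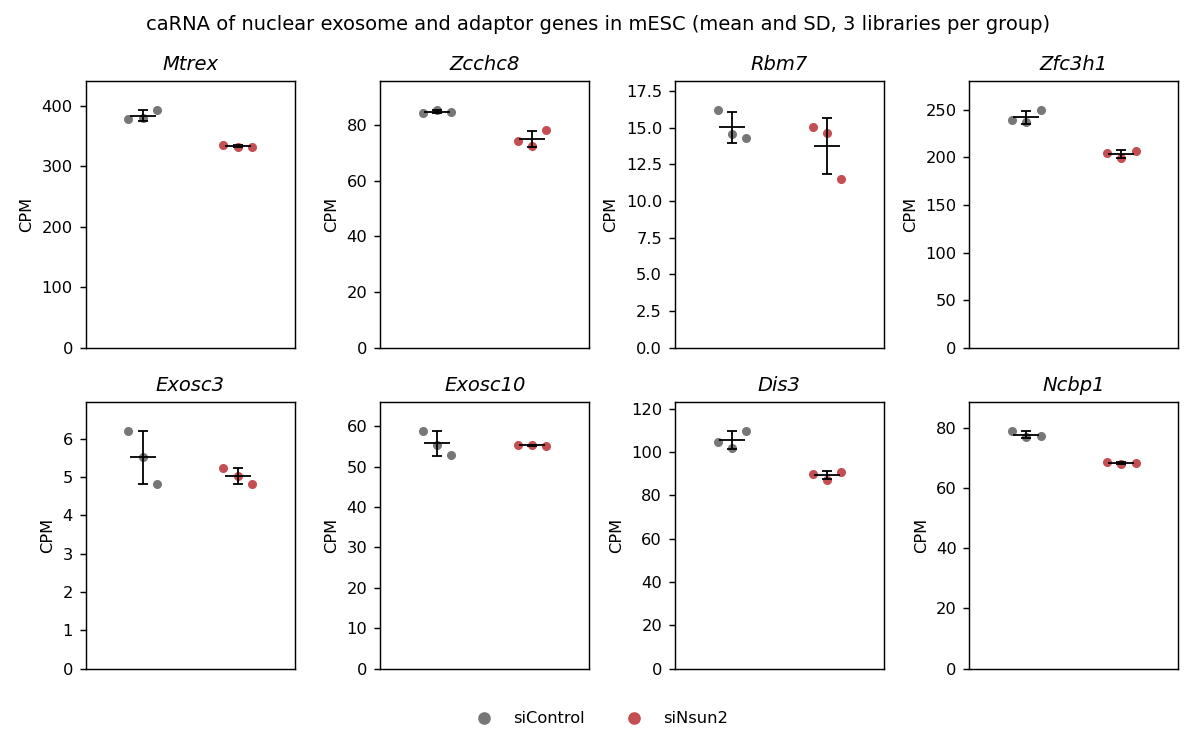
CPM of 8 members in mESC (y axis, from 0) in siControl and siNsun2 (colours); points are libraries, with mean and SD of 3. Mtrex, Zfc3h1, Dis3, Ncbp1 and Zcchc8 are lower in all 3 siNsun2 libraries, and Exosc10 overlaps.

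Beyond the members, 24 other nuclear RNA decay genes (exosome core and cofactors, cap-binding, PAXT-associated, TRAMP-like and termination genes) were counted, with 23 tested. All 5 genes listed for the cytoplasmic exosome and its SKI helper were tested. The untested gene was RBM27 in K562 and Exosc6 in mESC, each at 0 counts in every library. Overlap with other annotated genes was not examined for these lists, so 0 counts set no limit on a level. With shMBD6 in TET2 WT, 17 of the 23 fell and ZCCHC7 rose (0.18 ± 0.02), with a median log2 change of -0.37. Over all genes tested 24.7% were called lower and 17.7% higher, and the well expressed genes had a median of -0.17. The largest were NRDE2, which binds MTREX (-0.87 ± 0.06), ZC3H4, which curbs unproductive transcription (-0.84 ± 0.04), and the core subunit EXOSC5 (-0.75 ± 0.15). All 5 cytoplasmic genes fell, led by SKIC8 (-0.30 ± 0.08) and DIS3L (-0.27 ± 0.06), and none of the 5 was called when scaled on well expressed genes, whereas 15 of the 23 nuclear genes stayed lower. In TET2 KO against WT with shControl, 13 of 23 fell and 5 rose (median -0.19), led by ZC3H3, a PAXT partner (0.90 ± 0.07), ZC3H4 (-0.87 ± 0.04) and ZCCHC7, the TRAMP zinc-knuckle protein (0.44 ± 0.02). DIS3L (0.75 ± 0.06) and HBS1L (0.33 ± 0.03) were among 3 cytoplasmic genes that rose. There 23.5% of all genes were called higher and 22.3% lower, with a median of 0.04 for the well expressed genes.

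In the libraries labelled shMBD6 within TET2 KO, 13 of 23 nuclear genes rose and 6 fell (median 0.27). Over all genes 15.7% were called higher and 20.6% lower, and the well expressed genes had a median of -0.02. ZCCHC7 (-0.60 ± 0.02), ZC3H4 (0.55 ± 0.04) and EXOSC9 (0.54 ± 0.07), a core subunit, changed most, with HBS1L (-0.25 ± 0.03) and SKIC2 (0.18 ± 0.06) among the cytoplasmic genes, of which 2 rose and 2 fell. Between the genotypes with shMBD6, 18 of 23 rose and 2 fell, led by EXOSC4 (1.09 ± 0.24), EXOSC5 (0.98 ± 0.15) and NRDE2 (0.84 ± 0.06). EXOSC4 held only 90 to 266 counts per K562 library. All 5 cytoplasmic genes rose, led by DIS3L (1.20 ± 0.06) and SKIC8 (0.49 ± 0.08). Here 30.1% of all genes were called higher and 28.5% lower, with a median of 0.22 for the well expressed genes. The interaction was positive in 16 of 23 and negative in 3, led by ZC3H4 (1.39 ± 0.06), NRDE2 (1.28 ± 0.08) and EXOSC5 (1.28 ± 0.21), and positive in 3 of 5 cytoplasmic genes, led by DIS3L (0.45 ± 0.09) and SKIC8 (0.45 ± 0.12). Under all 4 scalings 14 to 16 of the 23 stayed positive. Among all genes 23.9% had a positive and 25.5% a negative interaction, and the well expressed genes had a median of 0.13. In mESC 16 of 23 fell with siNsun2 and none rose, with Phax (-0.35 ± 0.07), Exosc9 (-0.34 ± 0.06) and Zcchc7 (-0.32 ± 0.02) largest, and 4 of 5 cytoplasmic genes fell, led by Ttc37 (-0.26 ± 0.03) and Wdr61 (-0.25 ± 0.05). With siNsun2 24.3% of all genes were called lower and 25.8% higher. The 23 had a median log2 change of -0.20, against -0.21 for the well expressed genes. Scaled on well expressed genes, 2 of the 23 were lower and 6 higher.

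Several members start within 1 kb of a gene on the other strand. TSTD2, beside NCBP1, changed in the same direction as NCBP1 in each K562 comparison and by more: -0.75 ± 0.05 with shMBD6 in TET2 WT, -0.60 ± 0.05 in TET2 KO against WT with shControl, 0.59 ± 0.05 in the libraries labelled shMBD6 in TET2 KO and 1.34 ± 0.07 in the interaction. DIS3 and its partner PIBF1 did not move alike. PIBF1 changed by 0.06 ± 0.03 with shMBD6 in TET2 WT (adjusted p = 0.15), rose by 0.44 ± 0.03 in TET2 KO against WT and had an interaction of -0.48 ± 0.05, opposite in sign to that of DIS3. DHX29, beside MTREX, changed by -0.23 ± 0.05 with shMBD6 in TET2 WT and by -0.17 ± 0.05 in TET2 KO against WT, where MTREX rose. In mESC, Dhx29 (-0.20 ± 0.03), Pibf1 (-0.42 ± 0.03), Tstd2 (-0.25 ± 0.06) and Dcaf10 beside Exosc3 (-0.32 ± 0.05) fell and Thap2 beside Zfc3h1 rose (0.40 ± 0.10).

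Tested genes within 5 Mb of NCBP1 (105 genes) had a median log2 change of 0.06 with shMBD6 in TET2 WT and -0.26 in the interaction, and those of ZCCHC8 (138 genes) had -0.08 and 0.16. NCBP1 itself was at -0.55 and 0.82, and ZCCHC8 at -0.50 and 0.70. The level of NCBP1 had the widest range of the 4 group means in K562, 0.55 in log2 CPM, followed by DIS3 at 0.50 and ZCCHC8 at 0.50. Over the 12 K562 libraries the genes most like it in log2 CPM were PNISR-AS1, DHX32 and RPSA, each with Pearson's r of 0.99, and 1120 of 9886 genes compared had r over 0.9. Among the members, MTREX and ZFC3H1 were most alike (r = 0.97), followed by ZCCHC8 and NCBP1 (r = 0.93), and ZCCHC8 and ZFC3H1 were least alike (r = 0.35). These libraries share their 4 groups and their scaling, and the correlations are descriptions only.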

How the data were processed

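Chromatin-associated RNA was fractionated, depleted of ribosomal RNA and sequenced with a stranded total-RNA kit. Per the study's methods and the submitters' processing notes, the authors trimmed reads with Trimmomatic 0.39, aligned them with HISAT2 2.2.1 to mm10 or hg38 and counted reads per GENCODE gene with HTSeq 0.12.4. The deposited values are raw counts per gene, 1 table per library, unscaled. The strand and feature options of counting are not given in the sources used here. The study's methods also name featureCounts for caRNA and spike-in scaling; the tables analysed held 0 spike-in rows, so no spike-in scaling was made. The summary rows of each table (reads without a gene, ambiguous or not uniquely aligned) did not enter library sizes. One library of another mESC experiment (Pspc1 WT) had no comparison group and was not used.

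Counts were tested with edgeR 4.0.16 (R 4.3.3, limma 3.58.1): TMM scaling, filterByExpr at its minimum of 10 counts, robust quasi-likelihood fits, Benjamini-Hochberg adjustment of two-sided p-values across the 27603 mouse or 26023 human genes tested, and a call at an adjusted p under 0.05. All 12 K562 libraries shared 1 model. CPM are TMM-scaled. Alternatives were DESeq2 1.42.0 (its size factors, its test), scaling by total gene counts or on genes at a mean log2 CPM of at least 5, no filter, a replicate block, only the groups compared, and leaving out each library. The fit was tested on simulated data. Symbols and positions are from later GENCODE releases of the same builds, and 99.2% of human and 99.9% of mouse identifiers matched.

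All members are named. Of the other lists, the 3 (nuclear) or 2 (cytoplasmic) largest called changes are named. The members and lists were chosen with earlier results of these data known, and the gene span classes were added after seeing the data. A ratio needed at least 100 counts of both genes in each library. Replicate pairs differed by 3.92 to 14.9 times sampling noise (chi-square per degree of freedom), so each library counted as 1 replicate. The labels do not say whether replicates came from separate cultures, so p-values measure only the spread between these libraries. Same-numbered TET2 WT shControl and shMBD6 libraries deviated together to some degree (correlations 0.44, 0.18 and 0.19 over 5956 genes). For TET2 WT and TET2 KO shControl the correlations were 0.30, 0.06 and 0.19. For TET2 KO shControl and the libraries labelled TET2 KO shMBD6 they were 0.10, -0.05 and 0.18. The labels do not say whether same-numbered libraries were prepared together, and the reported fit used no replicate block. No floor is given for members at 0 counts, whose exons lie inside the span of another gene.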

Additional observations from a re-analysis of the deposited data

Results flagged for a closer look

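The response labelled shMBD6 differed between TET2 KO and TET2 WT, by a test of the difference itself, in 6 members. The log2 difference was 0.82 for NCBP1, 0.70 for ZCCHC8, 0.46 for DIS3, 0.46 for EXOSC10, 0.17 for MTREX and 0.16 for ZC3H18. For NCBP1, ZCCHC8 and EXOSC10 each of the 3 shMBD6 libraries of TET2 WT lay below every TET2 WT shControl library, and each of the 3 labelled shMBD6 in TET2 KO lay above every TET2 KO shControl library. MTREX and ZC3H18 were not called with DESeq2 size factors, and ZC3H18 was not called without TET2 KO shMBD6 replicate 2 (adjusted p = 0.057). MBD6 itself was not lower in the latter libraries (34.4 ± 3.9 against 30.3 ± 0.75 CPM, SD, n = 3), and 23.9% of all genes tested had a positive interaction. The 5956 well expressed genes had a median interaction of 0.13, and DIS3 lay below the median of its span class (0.49).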

How the results depend on the processing

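NCBP1 and ZCCHC8 kept their direction and call in each K562 comparison under all alternatives tried. The number of all genes called stayed within 1.5 times the reported number throughout. Among members, scaling on genes at a mean log2 CPM of at least 5 (below, well expressed genes) lowered the number called from 5 to 1 with siNsun2, from 7 to 3 with shMBD6 in TET2 WT and from 8 to 5 in TET2 KO against WT with shMBD6. Total gene counts lowered it from 5 to 2 with siNsun2.

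Log2 changes turned sign as follows. With siNsun2, well expressed genes gave Mtrex 0.00554, Zcchc8 0.0298, Rbm7 0.0772, Exosc3 0.0723, Exosc10 0.198 and Ncbp1 0.0203. Total gene counts gave Zcchc8 0.00125, Rbm7 0.0486, Exosc3 0.0440 and Exosc10 0.170. Leaving out 1 library gave Exosc10 from -0.0467 to 0.0312 (the latter without siControl replicate 1). In TET2 KO against WT with shControl, total gene counts gave MTREX -0.0208 and DIS3 -0.136, and well expressed genes gave DIS3 -0.0194. Leaving out 1 library there gave PABPN1 from -0.123 to 0.0206, DIS3 from -0.0026 to 0.0724 and ZC3H18 from -0.0160 to 0.0172. With shMBD6, well expressed genes gave ZFC3H1 0.0322 in TET2 WT, and total gene counts gave MTREX 0.0578, ZFC3H1 0.0403 and ZC3H18 0.0523 in TET2 KO. Well expressed genes gave ZC3H18 -0.0629 in TET2 KO against WT with shMBD6. The interaction of ZFC3H1 was -0.0510 with DESeq2 size factors, -0.0506 with the DESeq2 test, -0.108 on well expressed genes and -0.00795 without a filter. The log2 ratio of RBM7 to ZCCHC8 with siNsun2 ran from -0.0373 to 0.192 on leaving out 1 library. The cause was not tested.

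In TET2 KO with the label shMBD6, ZFC3H1 was called in 1 of 7 other settings and DIS3 in 4 of 7. In TET2 KO against WT with shMBD6, PABPN1 and ZC3H18 were each called in 1 of 7. With the replicate number as a block, 5 members were called with siNsun2, 5 and 8 in TET2 KO against WT with shControl and shMBD6, 7 and 4 with shMBD6 in TET2 WT and KO, and 6 in the interaction, the same numbers as without it. Same-numbered mESC libraries correlated at -0.038, 0.023 and -0.038, which does not show whether they were prepared together. Ranks of level moved for 28 of 44 member and group pairs per kilobase of exon. Exons inside the span of another gene limit RBM7, PABPN1 and EXOSC3 in K562 and Pabpn1 and Zc3h18 in mESC.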
